A study of Mus musculus with 12 samples.

Results

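A set of 9 CC chemokine system genes were followed through 12 mouse tumours: the ligands Ccl2, Ccl7, Ccl8, Ccl3, Ccl4, Ccl5, Ccl20 and Ccl22 and the receptor Ccr2. They were found by symbol, and all 9 of 9 were present among the 54446 genes of the count table and among the 16833 genes with enough reads to be tested. The tumours grew from Sq-1979 cells, a mouse squamous cell carcinoma line, mixed with Matrigel and injected under the skin of the back of male C3H/HeN mice that were 6 weeks old. The 4 groups of 3 tumours received vehicle, a rat anti-PD1 antibody, SN-38 (the active metabolite of the topoisomerase I inhibitor irinotecan), or the antibody with SN-38, called the combination here. The sources used here give no dose, schedule or time of collection. The tumours came from 1 cell line under the skin rather than in the mouth or throat, and the labels do not say whether each tumour came from a separate mouse, so the p-values measure the spread between these tumours, which may be partly technical.

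CC chemokines are small secreted proteins that draw leukocytes along a gradient by way of receptors on the cell surface. Ccl2 and Ccl7 act on Ccr2, which inflammatory monocytes use to leave the bone marrow and enter tissue. Ccl3, Ccl4 and Ccl5 attract T cells and macrophages, Ccl20 acts on Ccr6, and Ccl22, a product of dendritic cells and macrophages, acts on Ccr4 of regulatory T cells. Many ligand genes are switched on by NF-kB or interferons, and their RNA in a tumour can come from leukocytes, fibroblasts or carcinoma cells.

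Of the ligand genes, 6 lie in 2 clusters on chromosome 11 of GRCm38. Ccl2, Ccl7 and Ccl8 fall within 81.2 kb, at chr11:82035571-82116799, and Ccl5, Ccl3 and Ccl4 within 138.9 kb, at chr11:83525778-83664683. Ccl20 lies on chromosome 1, Ccl22 on chromosome 8 and Ccr2 on chromosome 9. Ccl2 lies across from Gm17268 on the opposite strand, with no shared exon, and the sources used here do not say whether the counting used strand. RefSeq promoter windows of GRCm38.p6 were matched for 5 of the 9 genes (Ccl8, Ccl3, Ccl20, Ccl22 and Ccr2), and not for Ccl2, Ccl4, Ccl5 and Ccl7. The 250 bases before the RefSeq start are shown for Ccl3, the member with the smallest p in the combination against vehicle, and for Ccl20, the member with the smallest p in SN-38 against vehicle. Ccl3 lies on the minus strand at chr11:83649379-83649628 and Ccl20 on the plus strand at chr1:83116516-83116765. Capitals mark motif matches:
Ccl3: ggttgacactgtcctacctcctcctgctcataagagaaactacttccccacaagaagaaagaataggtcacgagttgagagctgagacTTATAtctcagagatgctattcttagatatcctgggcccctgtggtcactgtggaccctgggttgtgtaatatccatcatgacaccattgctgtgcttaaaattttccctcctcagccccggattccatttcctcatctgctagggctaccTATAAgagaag
Ccl20: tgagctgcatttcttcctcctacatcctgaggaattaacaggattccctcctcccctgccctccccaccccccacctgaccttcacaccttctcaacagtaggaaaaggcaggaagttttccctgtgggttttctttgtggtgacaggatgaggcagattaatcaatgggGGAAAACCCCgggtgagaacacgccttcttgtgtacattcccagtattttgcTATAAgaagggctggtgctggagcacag
In all, 4 motifs were searched on both strands: TATAA, the AP-1 motif TGANTCA, the kappaB consensus and the core of the interferon-stimulated response element. In Ccl20 the kappaB consensus, to which NF-kB binds, matched 80 to 71 bases before the start on the opposite strand, and TATAA matched 28 to 24 bases before it. In Ccl3 TATAA matched 11 to 7 bases before the RefSeq start, and on the opposite strand 162 to 158 bases before it. Among all 32851 RefSeq promoter windows, 7.25% held the kappaB consensus, 22.8% TATAA, 6.75% the AP-1 motif and 2.98% the interferon element. The last 2 motifs matched in none of the 5 windows, and matches are letters in a window only.

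Total counts ran from 21088288 to 28512141 per tumour, and levels were computed from them as CPM, the field’s usual scale for a count relative to its library total, here scaled by TMM. All 14 squamous epithelial markers were tested and their summed level ran from 11487 to 21654 CPM, so squamous epithelial RNA was present in each tumour. Whether that RNA came from the injected cell line was not tested. Anti-PD1 tumour 3 and combination tumour 3 stood apart. The summed level of 15 T-cell markers was 449 and 469 CPM in them and 191 to 308 CPM in the other 10 tumours. Their monocyte and macrophage markers summed to 1613 and 1810 CPM against 595 to 1066 CPM, and their conventional dendritic cell markers to 210 and 236 CPM against 65.4 to 93.5 CPM. Their NK-cell markers summed to 101 and 99.3 CPM against at most 53.8 CPM. B-cell markers summed to 11.9 and 12.2 CPM against at most 6.94 CPM, and mast-cell markers to 557 and 488 CPM against at most 343 CPM. Both are called the T-cell-rich tumours below as a label only, since markers of several leukocyte types were high in them. SN-38 tumour 1 and combination tumour 2 held the most neutrophil RNA, at 150 and 126 CPM over 12 markers against 12.1 to 58.9 CPM in the others. The summed level of 12 fibroblast markers was 25342 to 33762 CPM in vehicle and 6873 to 33703 CPM in anti-PD1 tumours. It was 9710, 67744 and 14176 CPM in SN-38 tumours 1, 2 and 3, and 6821 to 19306 CPM in combination tumours. In bulk tissue, fewer cells of a type and less RNA per cell cannot be told apart.

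The vehicle tumours give the resting order of the genes. Per kilobase of exon, Ccl8 was highest in them at 86.1 ± 25.5 CPM per kb (SD, n = 3), followed by Ccl5 at 19.0 ± 2.72 CPM per kb. Ccl7 came next at 13.8 ± 2.0 CPM per kb and Ccl2 at 11.2 ± 1.73 CPM per kb. The ranges of Ccl5 and Ccl7 overlapped over the 3 tumours, as did those of Ccl7 and Ccl2. Within each of the 3 tumours, however, Ccl5 lay above Ccl7 and Ccl7 above Ccl2. Ccl4 reached 3.78 ± 0.778, Ccl22 3.42 ± 0.201, Ccl3 2.31 ± 0.442 and Ccr2 2.29 ± 0.499 CPM per kb. Ccl4 and Ccl22 overlapped, as did Ccl3 and Ccr2, while Ccl22 lay above Ccl3 in all 3 tumours. Ccl20 was lowest at 0.962 ± 0.233 CPM per kb, from 18 to 48 counts per tumour in the whole series.

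**Figure D1:**
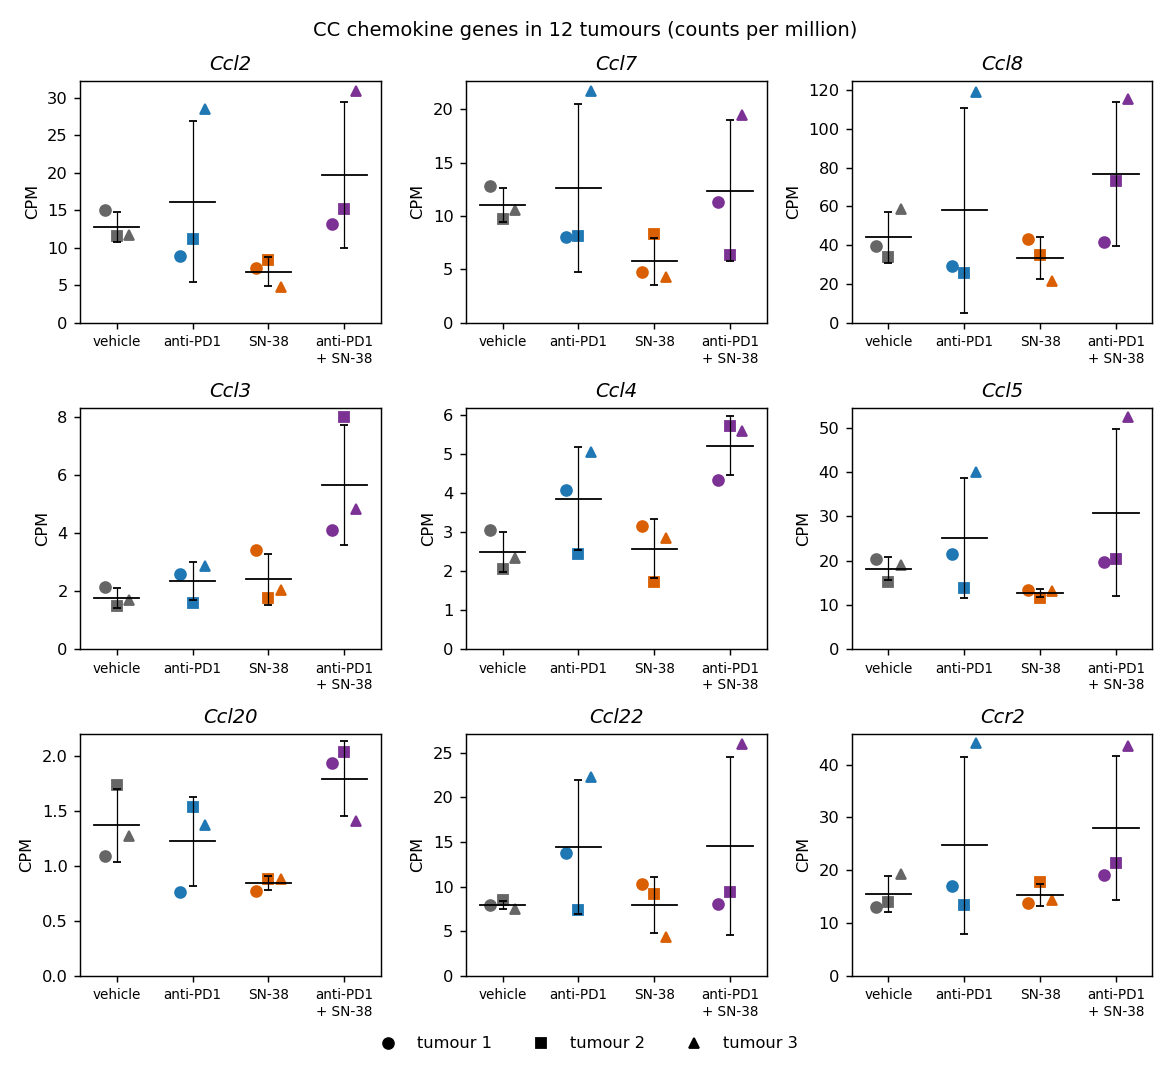
Levels in CPM (linear vertical axes from 0) of the 9 genes in the 12 tumours, grouped by treatment; symbols mark tumour numbers, horizontal lines the group mean and error bars the SD (n = 3). Ccl3 lies above 4 CPM in the 3 combination tumours and at 3.43 CPM or less elsewhere, and tumour 3 is the highest of its group for Ccl2, Ccl7, Ccl8, Ccl5, Ccl22 and Ccr2 in both antibody groups.

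Ccl2, a main monocyte attractant, was lowest in the SN-38 tumours, at 7.29, 8.44 and 4.74 CPM. The vehicle tumours held 15.0, 11.6 and 11.7 CPM, the anti-PD1 tumours 8.87, 11.1 and 28.5 CPM, and the combination tumours 13.1, 15.2 and 30.9 CPM. Every SN-38 tumour lay below the other 9 tumours, the nearest of which held 8.87 CPM. Ccl2 and Ccl5 were the members placed this way, as were 0.713% of all genes tested.

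Ccl7, its neighbour with overlapping receptor use, had a like pattern with more overlap. It stood at 12.8, 9.74 and 10.6 CPM in vehicle, 8.07, 8.14 and 21.7 CPM in anti-PD1, 4.71, 8.30 and 4.30 CPM in SN-38 and 11.3, 6.34 and 19.5 CPM in combination tumours. The SN-38 tumours lay below the vehicle tumours but not below combination tumour 2. Ccl8, an interferon-responsive ligand of the same cluster, was at 39.5, 33.7 and 58.6 CPM in vehicle, 29.1, 25.8 and 118.9 CPM in anti-PD1, 43.3, 35.1 and 21.8 CPM in SN-38 and 41.6, 72.9 and 115.4 CPM in combination tumours. Its groups overlapped in all 5 pairwise comparisons, and tumour 3 of each antibody group was the highest.

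Ccl3, an inflammatory ligand of Ccr1, was highest in the combination tumours, at 4.11, 8.0 and 4.84 CPM. It was at 2.14, 1.48 and 1.70 CPM in vehicle, 2.59, 1.61 and 2.88 CPM in anti-PD1 and 3.43, 1.75 and 2.05 CPM in SN-38 tumours. The 3 combination tumours lay above the other 9, as did 0.76% of all genes tested. Ccl4, an inflammatory ligand encoded beside it, was at 3.06, 2.07 and 2.35 CPM in vehicle, 4.08, 2.46 and 5.07 CPM in anti-PD1, 3.17, 1.72 and 2.85 CPM in SN-38 and 4.35, 5.74 and 5.59 CPM in combination tumours. The combination tumours exceeded the vehicle and SN-38 tumours but overlapped the anti-PD1 tumours.

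Ccl5, a product of activated T cells and macrophages, was at 20.3, 15.3 and 19.0 CPM in vehicle, 21.6, 13.8 and 40.0 CPM in anti-PD1, 13.5, 11.6 and 13.1 CPM in SN-38 and 19.7, 20.3 and 52.5 CPM in combination tumours. All SN-38 tumours lay below the other 9, the nearest at 13.8 CPM. Ccl20, an epithelial and macrophage product, was at 1.09, 1.73 and 1.27 CPM in vehicle, 0.764, 1.54 and 1.37 CPM in anti-PD1, 0.773, 0.877 and 0.884 CPM in SN-38 and 1.93, 2.04 and 1.41 CPM in combination tumours. Its SN-38 tumours lay below the vehicle and combination tumours, and tumour 2, not tumour 3, was the highest in both antibody groups.

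Ccl22 was at 7.89, 8.45 and 7.52 CPM in vehicle, 13.8, 7.33 and 22.3 CPM in anti-PD1, 10.3, 9.18 and 4.34 CPM in SN-38 and 8.10, 9.44 and 26.0 CPM in combination tumours. No pair of groups was separate. Ccr2, the monocyte receptor, was at 13.1, 14.0 and 19.3 CPM in vehicle, 16.9, 13.3 and 44.0 CPM in anti-PD1, 13.8, 17.8 and 14.3 CPM in SN-38 and 19.0, 21.3 and 43.6 CPM in combination tumours. Its combination tumours lay above the SN-38 tumours and overlapped both other groups.

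Antibody alone was compared with vehicle to see whether the genes differed under PD1 blockade. No member passed an adjusted p of 0.05 in edgeR's quasi-likelihood test with Benjamini-Hochberg adjustment over all genes, where 0% of genes passed. None was under an unadjusted p of 0.05 either, against 5.6% of all genes, and no member separated the groups, against 17.2% of all genes. Of the members, 8 were higher and 1 was lower, with a median log2 difference of 0.41 beside 0.01 over all genes. The smallest p belonged to Ccl4, with a log2 difference of 0.63 ± 0.31 (SE; adjusted p = 0.844 by edgeR), then Ccl22 at 0.86 ± 0.51 and Ccr2 at 0.68 ± 0.44, both also at 0.844. Without anti-PD1 tumour 3 and combination tumour 3 the median was -0.04, with 3 members higher and 6 lower, and Ccr2 was at -0.03. Leaving out anti-PD1 tumour 3 alone gave the same median and counts, and leaving out anti-PD1 tumour 2 gave a median of 0.75.

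SN-38 alone was compared with vehicle. No member passed the adjusted threshold in edgeR, beside 0.00594% of all genes, and 1 (Ccl20) was under an unadjusted p of 0.05, beside 10% of all genes. Of the members, 4, namely Ccl2, Ccl7, Ccl5 and Ccl20, lay below every vehicle tumour in all 3 SN-38 tumours, where 19.1% of genes separated the groups in either direction. In all, 7 members were lower and 2 higher, with a median of -0.40 beside 0.01. The median was -0.13 without vehicle tumour 3 and -0.17 without SN-38 tumour 3, with 6 lower in each, and -0.23 with the replicate block, with 5 lower and 4 higher. The log2 difference was -0.69 ± 0.30 for Ccl20 (adjusted p = 0.487 by edgeR), -0.90 ± 0.46 for Ccl2 (0.543) and -0.94 ± 0.48 for Ccl7 (0.548). Monocyte and macrophage markers were lower in 15 of 16 in the same comparison (median -0.22, none called), and interferon-gamma response genes in 17 of 18 (median -0.35, none called, 2 under the unadjusted level). The part of both lists in the members' values was not tested.

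The combination was compared with vehicle, which shares its control tumours with both comparisons above. All 9 members were higher, with a median of 0.80 beside 0.01, and none passed the adjusted threshold in edgeR, where 0% of genes passed. Of them, 2 were under an unadjusted p of 0.05, beside 12.9% of genes, and 2 separated the groups, beside 23.6% of genes. Both counts are Ccl3 and Ccl4. Ccl3 had a log2 difference of 1.67 ± 0.35 (adjusted p = 0.292 by edgeR) and Ccl4 one of 1.07 ± 0.31 (0.296). Ccr2 followed at 0.86 ± 0.44 (0.431). DESeq2 called Ccl3 in this comparison at an adjusted p of 0.00588, with the same log2 difference of 1.67. Ccl3 was 1 of 136 genes that DESeq2 called here. Over all alternatives the adjusted p of Ccl3 ran from 0.00588 to 0.673. limma voom called no member. Without both T-cell-rich tumours Ccl3 was at 1.77 and Ccl4 at 1.01, while the median of the 9 was 0.38, with 8 higher and 1 lower. Leaving out combination tumour 3 alone gave the same median and counts. Without both neutrophil-rich tumours Ccl3 was at 1.34.

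**Figure D2:**
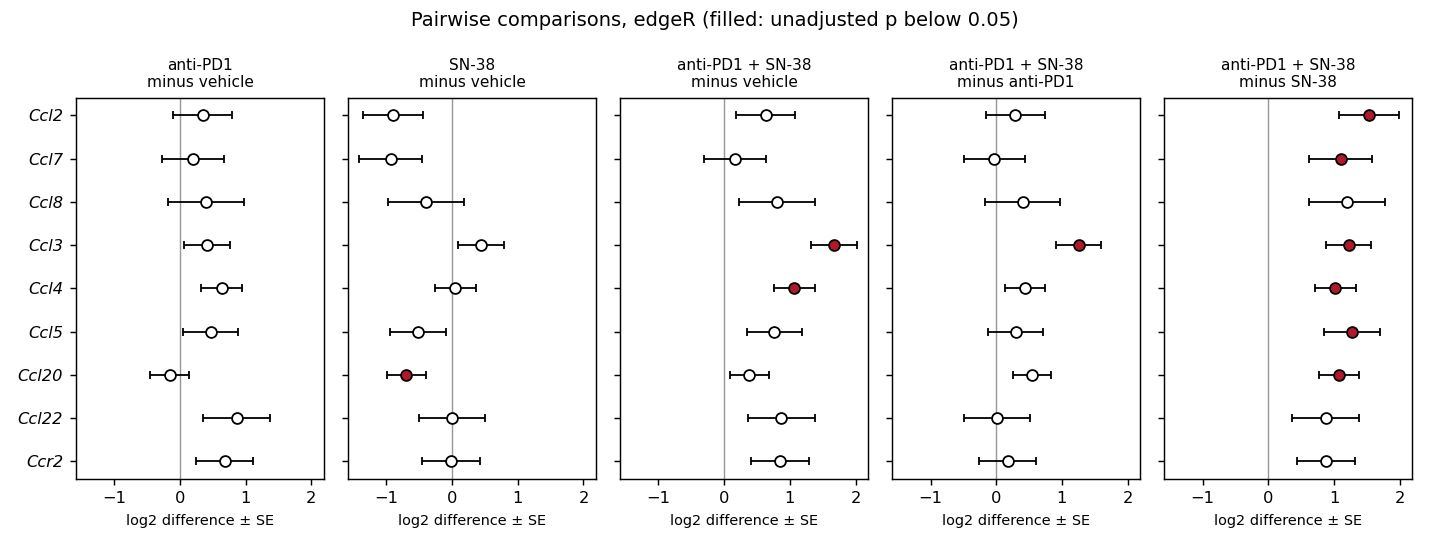
Log2 differences (horizontal axes) with their standard errors for the 9 genes in 5 pairwise comparisons from edgeR; filled points have an unadjusted p below 0.05 and none passes the adjusted threshold. The combination minus SN-38 panel has 6 filled points, and all 9 members are above 0 there.

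SN-38 added to the antibody was read from the combination against anti-PD1 tumours. No member passed the adjusted threshold in edgeR (0% of genes did), 1 was under an unadjusted p of 0.05, beside 7.96% of genes, and 1 separated the groups, beside 12.2%. That member was Ccl3 in both counts, at 1.26 ± 0.35 (adjusted p = 0.465 by edgeR). Ccl20 was at 0.54 ± 0.29 (0.688) and Ccl4 at 0.43 ± 0.31 (0.772). The median of the 9 was 0.30. It was -0.19 without combination tumour 3 and 0.79 without anti-PD1 tumour 3. Leaving out anti-PD1 tumour 1 gave 0.08, anti-PD1 tumour 2 gave 0.04, and combination tumour 1 gave 0.51.

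The antibody added to SN-38 was read from the combination against SN-38 tumours. All 9 members were higher, with a median of 1.10 beside -0.01 over all genes, and none passed the adjusted threshold in edgeR (0% of genes did). Of the 9, 6 were under an unadjusted p of 0.05 (Ccl2, Ccl7, Ccl3, Ccl4, Ccl5 and Ccl20), beside 7.92% of genes. Another count of 6 separated the groups (Ccl2, Ccl3, Ccl4, Ccl5, Ccl20 and Ccr2), beside 9.62%. Ccl20 was at 1.08 ± 0.30, Ccl3 at 1.23 ± 0.35 and Ccl2 at 1.53 ± 0.46, each with an adjusted p of 0.618 by edgeR. Without both T-cell-rich tumours all 9 remained higher, 5 were under the unadjusted level and the median was 0.78. Interferon-gamma response genes were higher in 18 of 18 in this comparison (median 0.90, none called, 17 under the unadjusted level). Regulatory T-cell markers were higher in 8 of 8 (median 1.04), conventional dendritic cell markers in 10 of 10 (0.91) and NK-cell markers in 8 of 8 (0.75). T-cell markers were higher in 13 of 15 (0.77) and monocyte and macrophage markers in 14 of 16 (0.69), while fibroblast markers were lower in 10 of 12 (-0.77). No gene of these lists was called, and their part in the members' values was not tested.

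**Figure D3:**
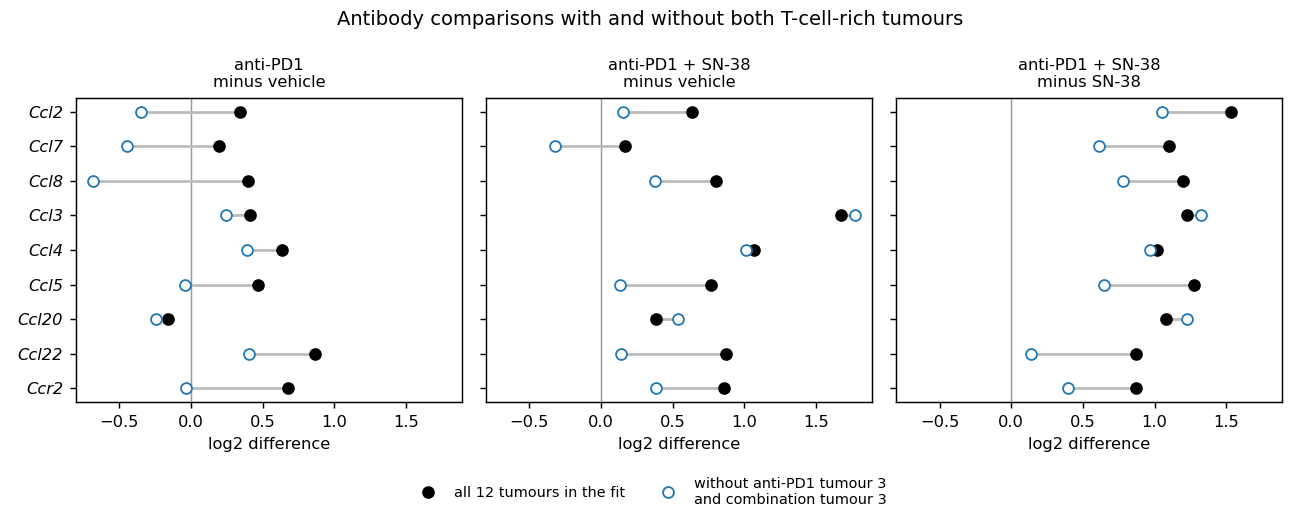
Log2 differences (horizontal axes) of the 9 genes in 3 comparisons with all 12 tumours in the fit (filled) and without anti-PD1 tumour 3 and combination tumour 3 (open). Ccl3 and Ccl4 move little in the combination comparisons, whereas the open points of Ccl2, Ccl7, Ccl8, Ccl5 and Ccr2 lie below 0 in anti-PD1 minus vehicle. Ccl20 lies below 0 there in both fits.

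The averaged effects use all 12 tumours. For SN-38 averaged over the antibody, 5 members were higher and 4 lower, none was called by edgeR (0% of genes) and 1 was under an unadjusted p of 0.05, beside 10.5% of genes. That was Ccl3, at 0.85 ± 0.25 (adjusted p = 0.298 by edgeR). Ccl7 was at -0.48 ± 0.33 (0.646) and Ccl4 at 0.24 ± 0.22 (0.735). Neutrophil markers were higher in 8 of 8 tested in this comparison, 7 under the unadjusted level and none called (median 2.20), and Ly6g, Camp, Ngp and Retnlg had too few reads to be tested. The rise was uneven between tumours. The summed neutrophil level was 150, 17.0 and 14.7 CPM in SN-38 tumours 1, 2 and 3, and 32.2, 126 and 58.9 CPM in combination tumours. Vehicle tumours held 12.1 to 20.9 CPM and anti-PD1 tumours 12.5 to 38.0 CPM. Without both neutrophil-rich tumours Ccl3 was at 0.51.

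For the antibody averaged over SN-38, all 9 members were higher with a median of 0.82, none was called by edgeR (0% of genes) and 6 were under an unadjusted p of 0.05, beside 6.67% of genes. Ccl4 was at 0.83 ± 0.22, Ccl3 at 0.82 ± 0.25 and Ccl2 at 0.94 ± 0.32, each with an adjusted p of 0.732 by edgeR. Without both T-cell-rich tumours 2 were under that level and the median was 0.30. Interferon-gamma response genes were higher in 18 of 18 in the same comparison, all 18 under the unadjusted level (median 0.81). NK-cell markers were higher in 8 of 8 tested (median 0.88), regulatory T-cell markers in 8 of 8 (0.68), conventional dendritic cell markers in 10 of 10 (0.64) and T-cell markers in 13 of 15 (0.72). No gene of these lists was called, and their part in the members' values was not tested. The interaction asks whether the antibody difference was larger with SN-38 than without it. All 9 interaction values were above 0, with a median of 0.81, none was called by edgeR (0% of genes) and 1 was under the unadjusted level, beside 7.63% of genes. The median was 0.38 without combination tumour 3 and 0.51 without anti-PD1 tumour 2, each with 7 members above 0 and 2 below, and 1.30 without anti-PD1 tumour 3. DESeq2 and the replicate block each gave 8 above and 1 below. The member under the unadjusted level was Ccl20, at 1.24 ± 0.42 (adjusted p = 0.599 by edgeR). Ccl2 was at 1.19 ± 0.64 (0.676) and Ccl3 at 0.81 ± 0.49 (0.712).

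The members' levels can be set side by side over the 12 tumours, as a description in which the tumours share treatment groups and cell content. The neighbours Ccl2 and Ccl7 had a Pearson r of 0.89 in log2 CPM, and 0.75 without both T-cell-rich tumours. The neighbours Ccl3 and Ccl4 had 0.86, and 0.89 without them. Ccl5 and Ccr2 had 0.89, and 0.42 without them, so that value rests on those 2 tumours. Ccl20 and Ccl22 had 0.06.

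Beside marker lists, Ccl8 had an r of 0.94 with the mean of the 16 monocyte and macrophage markers, and 0.85 without both T-cell-rich tumours. Ccl3 had 0.86 with the 8 tested neutrophil markers, and 0.94 without both neutrophil-rich tumours. This was not particular to Ccl3, since Ccl4 had 0.69 and 0.93 and Ccl5 had 0.31 and 0.89 with the same markers. Without that pair the members ran from 0.27 (Ccl20) to 0.94 (Ccl3). Ccl22 had 0.96 with the 15 T-cell markers, and 0.89 without both T-cell-rich tumours. With the 10 mature dendritic cell markers Ccl22 had 0.92, and 0.70 without both T-cell-rich tumours. Ccr2 had 0.93 with the monocyte and macrophage markers (0.68 without those tumours), 0.97 with the conventional dendritic cell markers (0.78) and 0.87 with the T-cell markers (0.07).

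**Figure D4:**
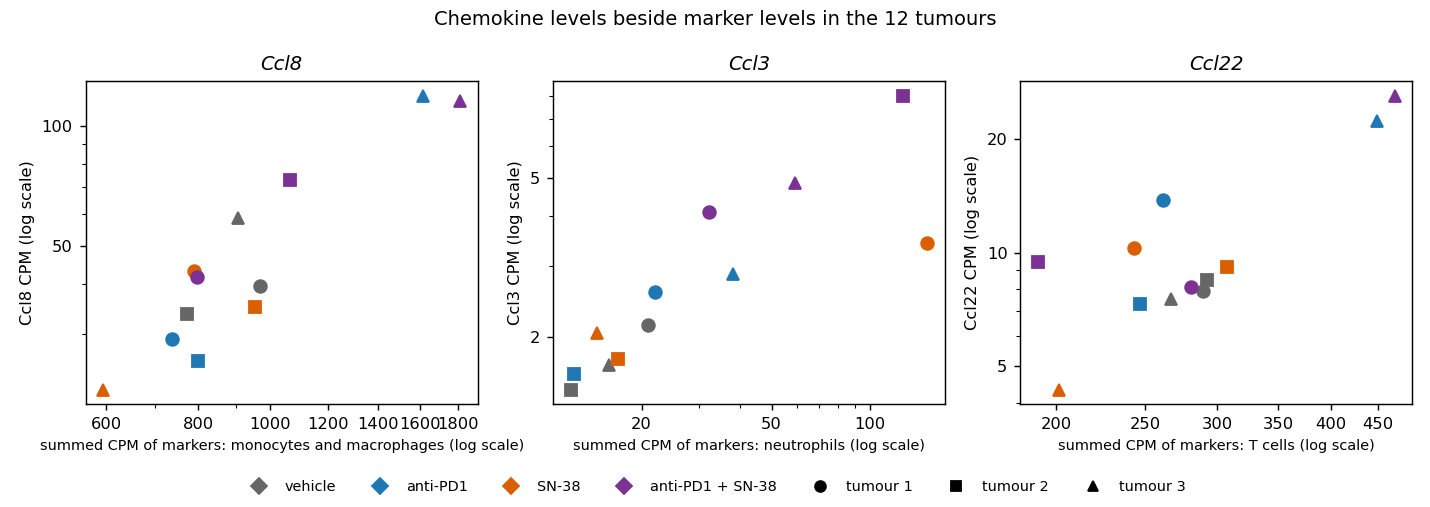
Level of Ccl8, Ccl3 and Ccl22 (vertical, CPM, log scale) against the summed CPM of a marker list (horizontal, log scale) in the 12 tumours; colours are groups and symbols tumour numbers. Anti-PD1 tumour 3 and combination tumour 3 lie at the upper right for Ccl8 and Ccl22, and SN-38 tumour 1, with 150 CPM of neutrophil markers, holds 3.43 CPM of Ccl3.

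Over 12971 genes with a mean of at least 1 log2 CPM and 12 tumours, the gene most like each member by Pearson r was as follows. Ccl2 was most like Fcgr1, a high-affinity Fc receptor of macrophages (0.98, then Pnpla7 and Ifi207). Ccl7 was most like Tor3a (0.97), Ccl8 like 6530402F18Rik (0.97) and Ccr2 like Ptpro (0.96). Ccl3 was most like Fndc3a (0.93) and Ccl4 like Rgs16 (0.94). Ccl5 was most like Cd28, a costimulatory receptor of T cells (0.98), and Ccl22 like Lck, a T-cell kinase (0.98, then Cd3g). Ccl20 was most like Gm16580 (0.92). Each value is the highest of many, over few tumours. Without both T-cell-rich tumours Ccr2 and Ptpro had 0.78. The other first-ranked pairs then ran from 0.90 (Ccl5 and Cd28) to 0.97 (Ccl22 and Lck).

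The rest of the CC family was counted in the same way. Of 13 other CC ligands 9 were tested, and of 14 other CC receptors 11 were tested. None was called by edgeR in any of the 8 comparisons. Against vehicle the combination had 7 of 9 ligands higher (median 0.63) and 9 of 11 receptors higher (median 0.79), beside 51.6% of all genes. With the antibody alone 4 of 9 ligands (median -0.03) and 11 of 11 receptors (0.64) were higher. With SN-38 alone 2 of 9 ligands (-0.40) and 5 of 11 receptors (-0.01) were higher. In the combination tumours all 13 ligands summed to 67.6, 67.4 and 180 CPM and all 14 receptors to 109, 140 and 205 CPM, so tumour 3 was the highest for both. Ackr4, a scavenging receptor, was at 70.3, 53.3 and 69.8 CPM in vehicle and 36.1, 23.4 and 46.5 CPM in combination tumours, a log2 difference of -0.87 ± 0.31 (adjusted p = 0.344 by edgeR). Its combination tumours lay below the vehicle tumours, in a comparison where 23.6% of all genes separated the groups in either direction.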

How the data were processed

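RNA was sequenced from TruSeq Stranded mRNA libraries, per the labels' protocols. The deposited values are whole-number read counts per Ensembl gene, 1 column per tumour. Per the submitters' processing notes cutadapt 2.4, STAR 2.7.2a and GRCm38 were used; the counting program and its strand setting are not given in the sources used here. Symbols and exonic lengths came from GENCODE M21, which matched 54409 of 54446 identifiers. In edgeR 4.0.16 (R 4.3.3), low genes were filtered with filterByExpr, counts scaled by TMM, and 1 quasi-likelihood model with 4 group means fitted to all 12 tumours, giving 8 comparisons with Benjamini-Hochberg adjustment. The code was tested on simulated data. DESeq2 1.42.0 at default settings, limma 3.58.1 (voom), other scalings, no filter, a replicate block and each tumour left out were alternatives. The 9 genes and the marker lists were chosen with earlier results of these data known. All 9 were named, with tests printed for the 3 smallest p-values per comparison, and from other lists the 2 smallest. In each of the 12 pairs of tumours within a group, counts differed by more than sampling noise; pairs between groups were not compared.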

Additional observations from a re-analysis of the deposited data

How the results depend on the processing

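No member was called in any of the 8 comparisons by edgeR, by limma voom, or under any alternative other than DESeq2. DESeq2 called 1 member (Ccl3, combination against vehicle, 1.67 on the log2 scale), among 136 genes it called in that comparison. DESeq2 was run at its default setting as planned. There it gave some members no adjusted p, so they could not be called. In anti-PD1 against vehicle these were all members but Ccl8 and Ccl5. In SN-38 against vehicle they were Ccl3, Ccl4 and Ccl20, and in the interaction Ccl20. With alpha at 0.05, an alternative added after both versions had been seen, the same gene was called at the same value. The other counts of members were those of the default. The counts of members under an unadjusted p of 0.05, a measure chosen after the data were seen, moved more. For anti-PD1 against vehicle the count of 0 was 1 with DESeq2, and 0 to 3 with 1 tumour left out. For SN-38 against vehicle the count of 1 was 0 without a filter on low counts, 2 with DESeq2, 0 with limma voom, 4 with only the 2 groups compared, 3 without both T-cell-rich tumours, 0 without both neutrophil-rich tumours, and 0 to 1 with 1 tumour left out. Leaving out 1 tumour gave 2 to 4 for the combination against vehicle, 1 to 4 against anti-PD1, 4 to 7 against SN-38, 1 to 2 for SN-38 averaged, 4 to 9 for the antibody averaged and 1 to 5 for the interaction. DESeq2 gave 8 for the combination against SN-38 and 8 for the antibody averaged, where the count was 6 in each. limma voom gave 5 and 4 for them, and so did the fit without a filter on low counts. Scaling by total counts gave 6 and 7. The share of all genes under the unadjusted level was not counted for the alternatives. Without both T-cell-rich tumours the count was 2 for the combination against anti-PD1, 2 for the antibody averaged and 5 for the interaction, which was 0 without both neutrophil-rich tumours. Ccr2 in anti-PD1 against vehicle reversed to -0.0308 without anti-PD1 tumour 3 and to -0.0331 without both T-cell-rich tumours. With 1 tumour left out Ccr2 ran from -0.0308 to 0.9766. Reversals were not limited to Ccr2. Without anti-PD1 tumour 3, Ccl8 was at -0.68, Ccl7 at -0.45, Ccl2 at -0.35 and Ccl5 at -0.04 in the same comparison. Ccl7 in the combination against vehicle was at -0.32 without combination tumour 3. The cause was not tested. Whether the tumours' numbers pair them was not settled. Same-numbered tumours had correlations of deviations from -0.47 to 0.63, but differently numbered tumours were not set beside them. With the replicate block, 0 members were called, and 3 were under the unadjusted level for the combination against vehicle and 6 against SN-38.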

Other observations

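Ccl11, an eosinophil attractant, singled out after its values were seen, was at 151.6 CPM in anti-PD1 tumour 3 and 143.1 CPM in combination tumour 3, and at 6.85 to 52.9 CPM in the other 10 tumours. Ccl6, a myeloid ligand, was at 29.01 CPM in combination tumour 2, 1 of the neutrophil-rich tumours, and at 1.47 to 10.3 CPM in the others. Ccl26 had no read in any tumour.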
